A study of Mus musculus with 12 samples.

Results

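The ATP-binding cassette (ABC) transporters were followed in kidneys from 12 mice, all 6 months old. The family was taken as every protein-coding gene whose symbol is Abc, a subfamily letter from a to g, a number and, where present, a further letter, which gave 50 of the 35275 genes in the deposited count table. Kidney RNA came from 4 WT mice, 4 RC/RC mice and 4 RC/RC:*Casp1*KO mice (the double mutant), with 2 females and 2 males in each group. RC/RC mice carry a hypomorphic *Pkd1* allele on both chromosomes and form cysts slowly. RC/RC:*Casp1*KO mice carry the same *Pkd1* alleles and also a small deletion in both copies of *Casp1*, made with TALENs and bred to homozygosity from a single mutation, so Caspase-1 was disrupted in every cell type. All mice were of the C57BL/6J strain. The 3 comparisons ask how the cystic kidney differed from WT, how loss of Caspase-1 changed the cystic kidney, and how far the double mutant still differed from WT. Mice are numbered 1 to 4 within a group by the order of their columns, which carry neither sex nor a replicate number.

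ABC proteins bind and split ATP with paired nucleotide-binding domains. Full transporters hold the pair and their membrane domains in one chain, smaller members dimerize, and the E and F subfamilies have no membrane domain and act on ribosomes. In the kidney, transporters at the brush border of the proximal tubule export drugs, urate, cyclic nucleotides and conjugated organic anions into urine, whereas other members move cholesterol, phospholipids, fatty acyl-CoA, haem precursors or vitamin B12 across cell and organelle membranes.

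Each library held 18019819 to 24869454 reads assigned to genes, and ABC transporters received 32882 to 87121 of them, or 0.182% to 0.361%. Levels are given as FPKM, the count divided by the gene length in kb and by the library size per 1e+06 reads, after TMM scaling of the 12 libraries. Fold changes are log2 values with standard errors from edgeR's quasi-likelihood fit of the 8 mice of a pair of groups, and genes with a Benjamini-Hochberg adjusted p under 0.05 over all genes tested were called DEGs. Correlation of log2(CPM + 1) over the tested genes with the other mice of the group averaged 0.9717 to 0.9804 in all 12 libraries. RC/RC mouse 2 stood farthest from the mice of the other groups, with a mean correlation of 0.9406 against 0.9606 to 0.9714 for the other libraries. Genes of the mitochondrial genome took 9.85%, 9.96%, 9.37% and 10.6% of the reads in WT, 8.68%, 12.1%, 11.6% and 9.37% in RC/RC and 7.78%, 9.55%, 10.4% and 8.58% in double mutant mice. The highest 2 shares belonged to RC/RC mice 2 and 3, which also had the lowest shares of reads on ABC transporters (0.182% and 0.195%), and the part of this in the RC/RC levels was not tested. Results that change without it, or without another mouse, are given with both values.

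The knocked-out gene was examined first. *Casp1* was at 1.37, 0.859, 0.873 and 0.944 FPKM in WT, 2.22, 2.58, 2.83 and 1.75 FPKM in RC/RC and 0.255, 0.446, 0.444 and 0.707 FPKM in double mutant mice. Every RC/RC:*Casp1*KO mouse was below every other mouse, and the log2 difference from RC/RC was -2.35 ± 0.32 (adjusted p = 0.00514). Reads remained on *Casp1* in the knockout, with 10 to 23 counts per mouse, and the deletion covers a small part of the gene. *Pkd1* was at 2.84, 2.98, 4.77 and 4.375 FPKM in WT, 4.15, 4.76, 3.28 and 3.38 FPKM in RC/RC and 5.115, 4.98, 3.975 and 6.15 FPKM in double mutant mice. These *Pkd1* values overlapped between all groups, and the RC allele is a missense allele that a gene count does not read. The kidney was recognizable from its defining markers, with summed levels of 10 proximal tubule genes between 3137 and 7087 FPKM in single mice and of 3 thick ascending limb and distal tubule genes between 1160 and 2718 FPKM.

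Loss of Caspase-1 in the cystic kidney went with higher transcript levels of 6 ABC transporters, namely *Abcc5*, *Abcc10*, *Abca2*, *Abca5*, *Abca4* and *Abcd4*, and with no lower one. These 6 were 16.2% of the 37 members that passed the filter on low counts, beside 11.6% of all 15428 genes tested in the double mutant against RC/RC, 7.23% called higher and 4.41% called lower. In RC/RC against WT, 2 of the same 37 members were DEGs (*Abca9* higher and *Abcc6* lower). That share of 5.41% was below the 12.9% of all 15243 genes, of which 9.76% were called higher and 3.18% lower. In the double mutant against WT, *Abca1* and *Abca3* were higher and no member was lower, which was 5.41% of the members against 2.03% of all 15346 genes, 1.13% of them called higher and 0.893% lower. The median log2 difference of the 37 members was -0.17 in RC/RC against WT, where it was -0.02 over all genes tested. It was 0.24 in the double mutant against RC/RC, where it was -0.03 over all genes, and 0.14 against WT, where it was 0.01.

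Most members thus lay below WT in RC/RC and above RC/RC in the double mutant. Log2 differences were negative for 27 and positive for 10 of the 37 members in RC/RC against WT. Against RC/RC, the double mutant had 29 positive and 8 negative differences. The 4 RC/RC mice enter both of these comparisons, so a low or high RC/RC value enters them with opposite sign. Groups did not overlap for 4 members (10.8%) in RC/RC against WT, 1 higher and 3 lower, where 19.6% of all genes tested did not overlap, 12.6% higher and 7.06% lower. In the double mutant against RC/RC the groups did not overlap for 10 members (27.0%), 9 higher and 1 lower, and for 20.4% of all genes, 11.8% higher and 8.67% lower. In the double mutant against WT they did not overlap for 7 members (18.9%), 5 higher and 2 lower, and for 13.9% of all genes, 7.40% higher and 6.54% lower. At an unadjusted p under 0.05, 13 members differed in RC/RC against WT, 13 in the double mutant against RC/RC and 9 in the double mutant against WT. The shares of all genes at that threshold were 29.2%, 31.7% and 21.8%.

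**Figure D1:**
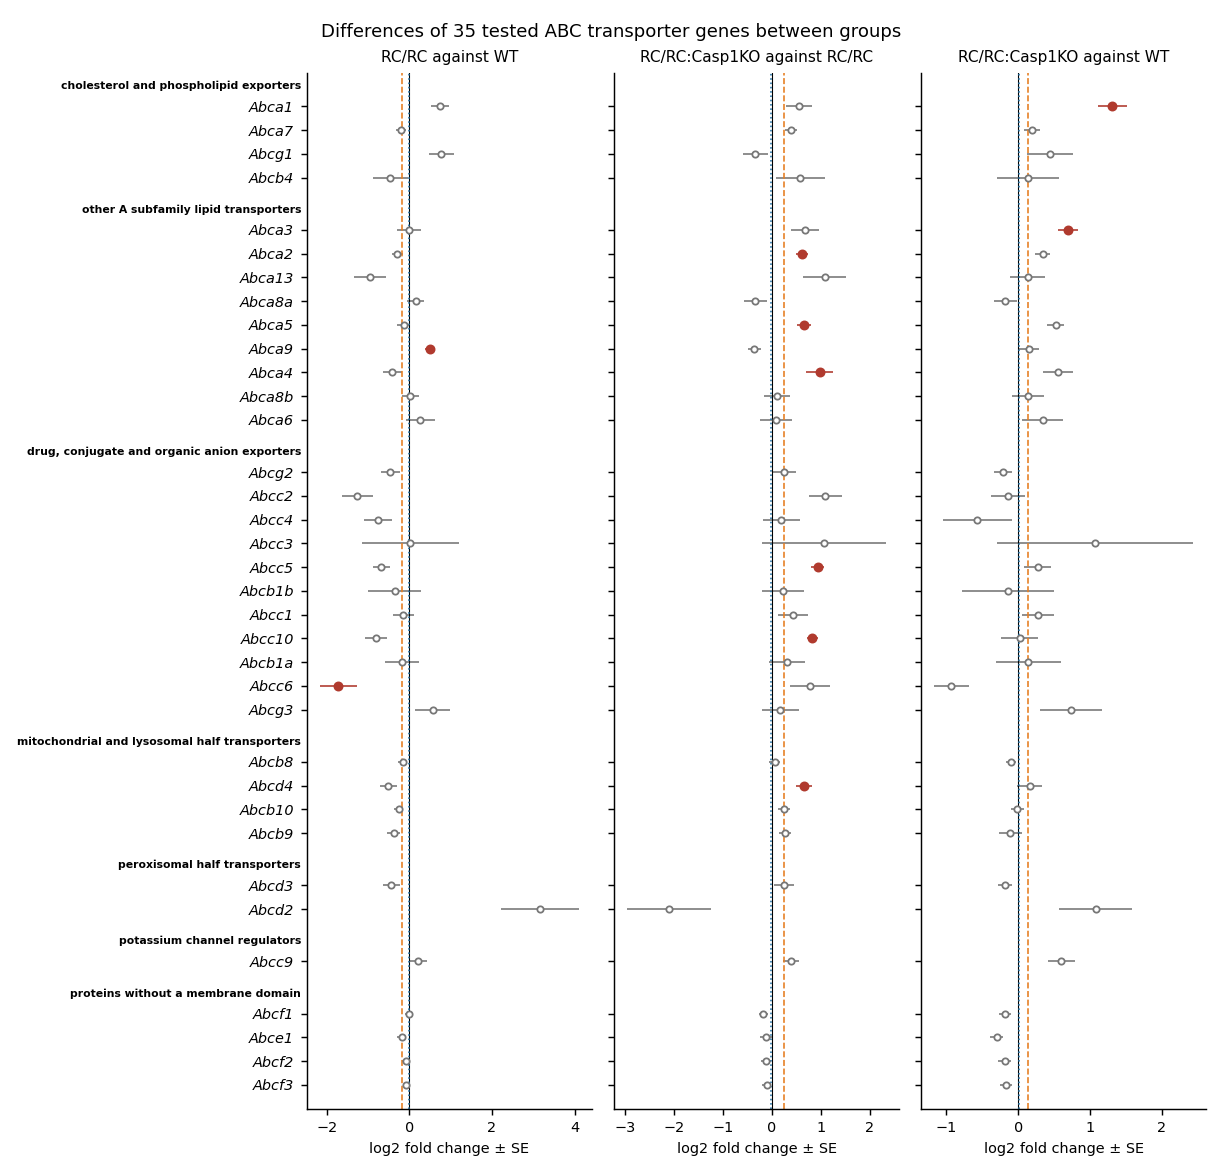
Log2 fold change ± SE of 35 of the 37 tested ABC transporters in each comparison (x axis, one panel per comparison), by role and, within a role, by mean level. Filled red points are DEGs, the dashed orange line is the median of the 37 members and the dotted blue line the median of all genes tested; in RC/RC:*Casp1*KO against RC/RC the 6 red points all lie on the positive side.

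Transcript levels differed widely within the family. Of the 50 members, 32 had a mean of at least 1 FPKM over the 12 mice, 15 at least 10 and 3 at least 50. The highest means belonged to *Abcg2* (an exporter of urate and drugs), *Abcd3* (which carries fatty acyl-CoA into peroxisomes) and *Abca3* (a phospholipid transporter of lamellar bodies), followed by *Abcc2* and *Abcf1*. No count was present for *Abca12* or *Abcb11*, the skin lipid transporter and the bile salt export pump of liver. *Abca15*, *Abca16*, *Abcb5* and *Abcc12* had at most 3 counts in every mouse, which is the floor used here. The other untested members, *Abca14*, *Abca17*, *Abcb6*, *Abcc8*, *Abcg4*, *Abcg5* and *Abcg8*, had mean levels of at most 0.0750 FPKM.

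**Figure D2:**
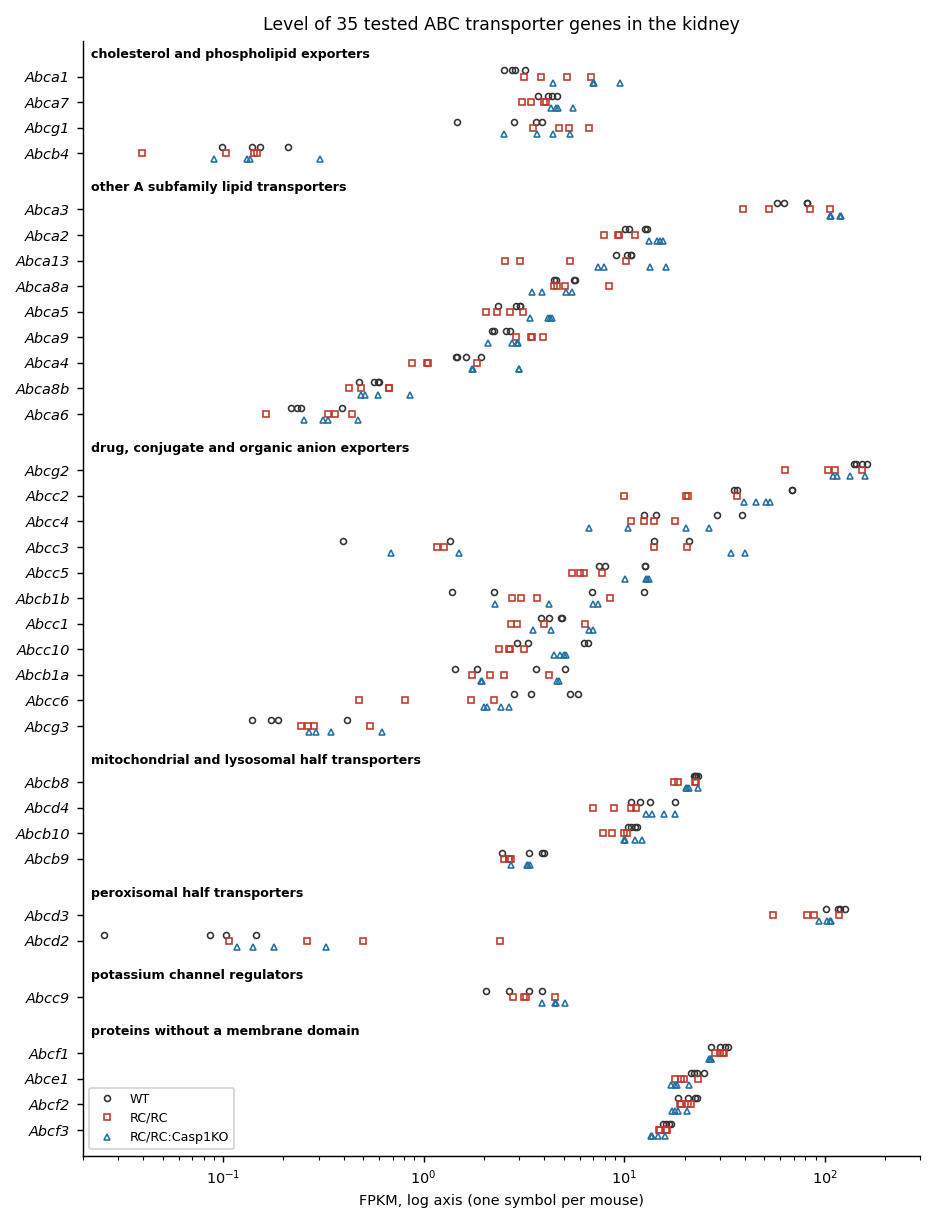
FPKM on a log axis in each of the 12 mice for 35 of the 37 tested ABC transporters, grouped by role (one symbol per mouse; circles WT, squares RC/RC, triangles RC/RC:*Casp1*KO). The members run from means of 0.141 FPKM upward, and *Abcc3* splits into low and high mice within each group.

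Exporters of drugs, conjugates and organic anions held the largest summed level of any role. The 14 members summed to 268 ± 14.8 FPKM in WT (mean ± s.d., n = 4), 175 ± 45.5 FPKM in RC/RC and 245 ± 13.3 FPKM in RC/RC:*Casp1*KO. By mouse, the sums were 247, 277, 267 and 279.8 FPKM in WT, 196, 119, 161 and 225 FPKM in RC/RC and 249, 261, 243 and 229 FPKM in RC/RC:*Casp1*KO. Every RC/RC mouse was below every mouse of the other groups. Sums over a role were not tested, here and below. Of the 11 members tested, *Abcc6* was lower in RC/RC than in WT, and *Abcc5* and *Abcc10* were higher in RC/RC:*Casp1*KO than in RC/RC.

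**Figure D3:**
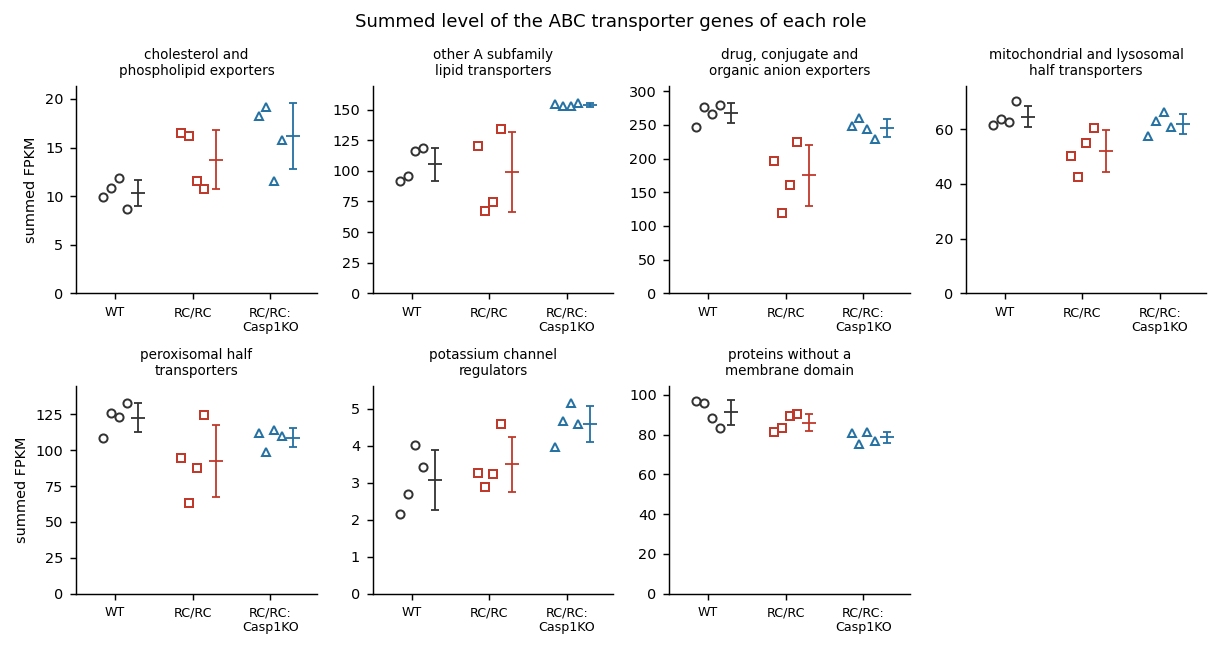
Summed FPKM of the ABC transporters of each role (y axis from 0) in single mice of the 3 groups, with mean ± s.d. beside them (n = 4). The exporter sums of the 4 RC/RC mice lie between 119 and 225 FPKM, below all WT and RC/RC:*Casp1*KO mice, and the A subfamily sums of the 4 RC/RC:*Casp1*KO mice lie between 152.6 and 155 FPKM after TMM scaling (147 to 166 FPKM with library size alone), above all other mice.

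*Abcc5* (MRP5, an exporter of cyclic nucleotides; ENSMUSG00000022822, chr16:20331303-20426394, minus strand) was at 7.47, 7.997, 12.7 and 12.65 FPKM in WT, 7.73, 6.01, 5.497 and 6.34 FPKM in RC/RC and 12.8, 13.03, 10.15 and 13.2 FPKM in double mutant mice. All 4 RC/RC:*Casp1*KO mice were above all 4 RC/RC mice, and WT mice 1 and 2 lay near the RC/RC values while mice 3 and 4 lay near the double mutant. The mean rose from 6.40 ± 0.955 to 12.3 ± 1.45 FPKM, a log2 difference of 0.93 ± 0.13 (adjusted p = 0.00514). Against WT, the RC/RC difference was -0.68 ± 0.20 (adjusted p = 0.0568), short of the threshold. DESeq2 and 1 dispersion from all 12 mice each called *Abcc5* lower there. *Abcc10* (MRP7, an exporter of glucuronide conjugates and drugs; ENSMUSG00000032842, chr17:46303221-46328352, minus strand) was at 3.31, 2.92, 6.33 and 6.58 FPKM in WT, 3.16, 2.66, 2.39 and 2.69 FPKM in RC/RC and 4.79, 5.13, 4.46 and 5.01 FPKM in double mutant mice. Its RC/RC and RC/RC:*Casp1*KO values did not overlap either, and the WT mice again split into a low pair (1 and 2) and a high pair (3 and 4). The log2 difference of RC/RC:*Casp1*KO from RC/RC was 0.82 ± 0.11 (adjusted p = 0.0041). The difference of RC/RC from WT was -0.81 ± 0.27 (adjusted p = 0.0784), and that of RC/RC:*Casp1*KO from WT was 0.02 ± 0.26 (adjusted p = 0.968). *Abcc10* was also called lower in RC/RC than in WT with DESeq2 and with 1 dispersion from all 12 mice. In RC/RC:*Casp1*KO against RC/RC, *Abcc5* and *Abcc10* were the members called in each of 7 alternative settings and in each of 8 fits without 1 mouse. Their log2 differences were 0.80 to 1.02 for *Abcc5* and 0.71 to 0.88 for *Abcc10*.

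As these members rose together, the bases before their start sites are shown with those of *Abca1*, described below. They are 250 bases each on GRCm38.p6 from RefSeq, written 5′ to 3′ on the strand of the gene, with capitals marking the motifs found. They lie at chr16:20426395-20426644 (*Abcc5*), chr17:46328024-46328273 (*Abcc10*) and chr4:53159896-53160145 (*Abca1*), all on the minus strand.
Abcc5: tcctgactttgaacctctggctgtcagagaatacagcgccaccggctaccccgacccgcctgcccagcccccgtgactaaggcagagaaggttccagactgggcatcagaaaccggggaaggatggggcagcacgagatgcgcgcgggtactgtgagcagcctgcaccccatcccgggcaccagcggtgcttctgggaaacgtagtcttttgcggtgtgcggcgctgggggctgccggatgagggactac
Abcc10: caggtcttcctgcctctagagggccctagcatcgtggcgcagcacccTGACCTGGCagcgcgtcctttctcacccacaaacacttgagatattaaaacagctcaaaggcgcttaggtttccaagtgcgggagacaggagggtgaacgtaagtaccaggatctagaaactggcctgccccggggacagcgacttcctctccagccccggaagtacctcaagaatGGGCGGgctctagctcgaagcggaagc
Abca1: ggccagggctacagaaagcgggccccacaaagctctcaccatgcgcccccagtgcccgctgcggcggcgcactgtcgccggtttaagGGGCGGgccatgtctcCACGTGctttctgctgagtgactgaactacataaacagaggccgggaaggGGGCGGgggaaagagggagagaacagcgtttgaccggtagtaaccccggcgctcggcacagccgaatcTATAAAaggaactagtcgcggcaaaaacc
The *Abcc10* start used here lies 329 bp inside the gene start of the count table, and a second RefSeq start lies 2586 bp inside it. Motifs were searched by exact letters on both strands. The CG box was GGGCGG, the box known as TATA was searched as TATAAA, and the box named CCAAT by those letters. An E box was CACGTG, which is its own reverse complement. The antioxidant element core was TGACNNNGC and the cAMP element TGACGTCA. The nuclear receptor elements DR1 and DR4 were the letters AGGTCA repeated in the same direction with 1 or 4 bases between. The *Abcc5* window held none of them. *Abcc10* had a CG box 27 bases and an antioxidant element core 203 bases before the start. *Abca1* had a TATA box at 29, CG boxes at 97 and 163 and an E box at 147 bases before the start, counted to the first base of the motif.
Of the 50 members, 38 matched 45 RefSeq entries. A CG box was in 44.4% of these 45 windows and in 32.7% of all 32851 windows, an E box in 11.1% and 6.02%, and an antioxidant element core in 8.89% and 10.2%. A TATA box was in 11.1% and 12.4%, a CCAAT box in 28.9% and 33.8% and a cAMP element in 4.44% and 1.55%. DR1 and DR4 letters were in no member window and in at most 0.0335% of all windows. This search misses elements that differ from AGGTCA at any base. The member windows, that of *Abca1* included, are therefore not shown to lack nuclear receptor elements. Median GC content was 56.4% in the member windows and 52.4% in all. Members with no entry included *Abcc1*, *Abcg4*, *Abcd2*, *Abcc6*, *Abcb8*, *Abcd4*, *Abcc3*, *Abcc8*, *Abca6* and *Abcg1*.

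*Abcc6* (MRP6, which releases ATP from cells and is mutated in the calcifying disease pseudoxanthoma elasticum; ENSMUSG00000030834, chr7:45976380-46030302, minus strand) was at 2.82, 3.43, 5.399 and 5.86 FPKM in WT, 1.72, 0.479, 0.810 and 2.25 FPKM in RC/RC and 1.996, 2.67, 2.06 and 2.42 FPKM in double mutant mice. All RC/RC mice were below all WT mice, and 2 of the RC/RC mice were under 1 FPKM. The mean fell from 4.38 ± 1.48 in WT to 1.32 ± 0.816 FPKM in RC/RC, a log2 difference of -1.72 ± 0.45 (adjusted p = 0.0338). RC/RC:*Casp1*KO mice averaged 2.29 ± 0.318 FPKM, with a log2 difference of 0.78 ± 0.41 (adjusted p = 0.223) from RC/RC and -0.93 ± 0.24 (adjusted p = 0.0853) from WT. Neither passed the threshold, although the double mutant and WT values did not overlap. The RC/RC call was lost without RC/RC mouse 1 or 3 or WT mouse 2, 3 or 4, with adjusted p values of 0.0501 to 0.0939.

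*Abcg2*, the member with the highest mean, was at 139, 144, 153 and 163 FPKM in WT, 104, 63.4, 112 and 153 FPKM in RC/RC and 109.5, 115, 158 and 134 FPKM in double mutant mice. RC/RC mouse 2 was the lowest of the 12, and RC/RC mouse 4 lay within the WT range. The log2 differences were -0.47 ± 0.23 (adjusted p = 0.21) for RC/RC against WT and 0.24 ± 0.25 (adjusted p = 0.542) for RC/RC:*Casp1*KO against RC/RC, neither past the threshold. *Abcc2* (MRP2, the apical exporter of organic anions in the proximal tubule) was at 35.4, 36.5, 68.5 and 68.4 FPKM in WT, 20.4, 9.94, 20.8 and 36.5 FPKM in RC/RC and 39.6, 45.6, 50.99 and 53.1 FPKM in double mutant mice. All RC/RC:*Casp1*KO values were above all RC/RC values, whereas RC/RC mouse 4 reached the 2 lower WT mice. The log2 difference of RC/RC from WT was -1.26 ± 0.38 (adjusted p = 0.0618), and that of RC/RC:*Casp1*KO from RC/RC was 1.09 ± 0.33 (adjusted p = 0.0601). Both stood just outside the threshold with edgeR, and both were called with DESeq2 and with a dispersion estimated from all 12 mice.

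The remaining exporters passed in none of the comparisons. Mean levels in WT, RC/RC and the double mutant were 23.7, 13.9 and 16.0 FPKM for *Abcc4* (MRP4, an exporter of cyclic nucleotides and urate), with a wide spread between mice, and 4.45, 3.99 and 5.38 FPKM for *Abcc1* (MRP1, an exporter of glutathione conjugates). For the paired P-glycoprotein genes of mouse, the corresponding means were 3.00, 2.66 and 3.304 FPKM (*Abcb1a*) and 5.77, 4.49 and 5.23 FPKM (*Abcb1b*). These 2 genes share 787 bases of transcript at 95.3% identity, so reads may be split between them in an unknown way. *Abcg3* stayed between 0.140 and 0.622 FPKM.

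*Abcc3* (MRP3, a basolateral exporter of conjugates) differed more between mice of one group than between group means. Its levels were 14.1, 20.9, 1.36 and 0.395 FPKM in WT, 20.7, 14.03, 1.17 and 1.26 FPKM in RC/RC and 40.2, 34.2, 0.687 and 1.51 FPKM in double mutant mice. In each group mice 1 and 2 were at 14.03 FPKM or more and mice 3 and 4 at 1.51 FPKM or less, so the group means of 9.19, 9.29 and 19.2 FPKM describe no single mouse. *Xist*, the X-inactivation transcript, was at 17.7, 20.15, 0.0198 and 0.0133 FPKM in WT, 24.45, 15.7, 0.00302 and 0.0145 FPKM in RC/RC and 37.2, 44.02, 0.0187 and 0.0466 FPKM in double mutant mice. *Ddx3y*, a gene of the Y chromosome, was at 0 to 0.0249 FPKM in mice 1 and 2 of every group and at 12.01 to 17.2 FPKM in mice 3 and 4. The mice with the higher *Abcc3* levels were thus those with *Xist* at 15.7 FPKM or more, and the other mice had *Xist* at 0.0466 FPKM or less. Of the 37 members tested, *Abcc3*, *Abcb1b* and *Abcc1* were higher in mice 1 and 2 than in mice 3 and 4 of each group, and *Abcc2* and *Abcg2* were lower. These 5 were 13.5% of the members, near the 10.7% of all 15773 genes tested in any comparison that split in this way, 5.03% higher and 5.69% lower in mice 1 and 2. *Abcb1b* was at 6.94, 12.5, 1.38 and 2.245 FPKM in WT, 8.49, 3.67, 2.74 and 3.05 FPKM in RC/RC and 7.41, 7.01, 4.21 and 2.28 FPKM in double mutant mice. *Abcc4* was at 29.2, 38.8, 12.6 and 14.4 FPKM in WT, 18.00, 12.6, 10.9 and 14.1 FPKM in RC/RC and 20.3, 26.4, 6.696 and 10.4 FPKM in double mutant mice, and its mice 1 and 2 were above mice 3 and 4 in WT and the double mutant, while those of RC/RC overlapped. No sex was assigned to a column and no test was made between these mice, and they are described after their values were seen. The part of sex in these levels was not tested.

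**Figure D4:**
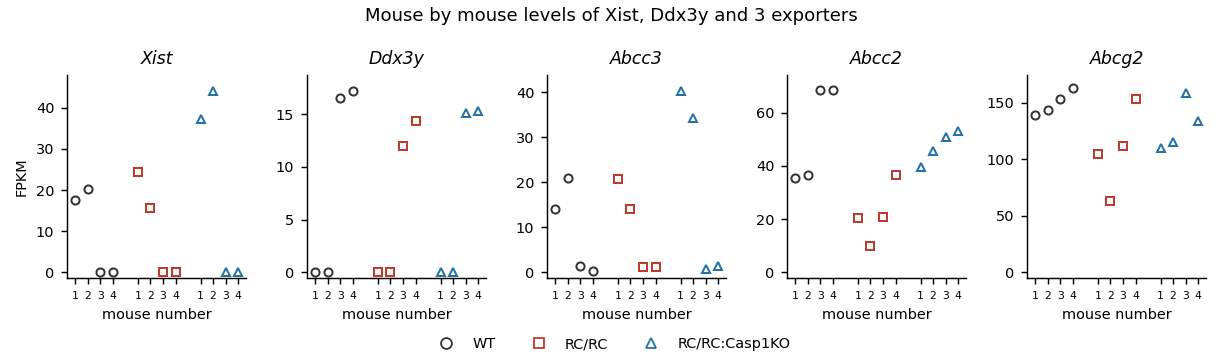
FPKM (y axis) of *Xist*, *Ddx3y*, *Abcc3*, *Abcc2* and *Abcg2* in single mice, numbered in column order within WT (circles), RC/RC (squares) and RC/RC:*Casp1*KO (triangles). *Xist* and *Abcc3* are high in mice 1 and 2 of every group, where *Abcc3* lies between 14.03 and 40.2 FPKM, and *Ddx3y* is high in mice 3 and 4.

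The other lipid transporters of the A subfamily had 3 of 9 tested members higher in RC/RC:*Casp1*KO against RC/RC (*Abca2*, *Abca5* and *Abca4*) and none lower, where 7.23% of all genes were higher. Their summed level was 105.3 ± 13.6 FPKM in WT, 99.1 ± 32.9 FPKM in RC/RC and 153.7 ± 1.33 FPKM in RC/RC:*Casp1*KO, most of it *Abca3*. Single RC/RC mice ranged from 67.5 to 134 FPKM. The close double mutant sums held after TMM scaling, and with library size alone they were 162, 165.5, 147 and 166 FPKM, still above all other mice.

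*Abca3* (ENSMUSG00000024130, chr17:24351950-24410201, plus strand) was at 57.7, 62.4, 81.2 and 81.2 FPKM in WT, 84.02, 38.9, 53.04 and 106 FPKM in RC/RC and 106, 107, 120.2 and 119 FPKM in double mutant mice. All RC/RC:*Casp1*KO mice were above all WT mice and, by a narrow margin over RC/RC mouse 4, above all RC/RC mice. The log2 difference from WT was 0.69 ± 0.14 (adjusted p = 0.0458), and that from RC/RC was 0.67 ± 0.28 (adjusted p = 0.142). RC/RC and WT had nearly equal means, with a log2 difference of -0.0036 ± 0.29 (adjusted p = 0.995). The call against WT was lost in each of the 8 fits without 1 mouse, with adjusted p values of 0.0567 to 0.122, while the log2 difference stayed between 0.60 and 0.76. A transcript on the opposite strand, *D330041H03Rik*, overlaps *Abca3* by 5553 bp and had 22 to 209 counts. The strand setting of the counting is not given in the sources used here, so reads of these transcripts cannot be told apart where they overlap.

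*Abca2*, an endosomal and lysosomal transporter best known from brain (ENSMUSG00000026944, chr2:25428703-25448540, plus strand), was at 10.1, 10.6, 12.8 and 13.02 FPKM in WT, 11.4, 9.47, 7.96 and 9.296 FPKM in RC/RC and 15.6, 15.1, 13.3 and 14.6 FPKM in double mutant mice. The RC/RC:*Casp1*KO mice were above all WT and all RC/RC mice. Its log2 difference from RC/RC was 0.61 ± 0.12 (adjusted p = 0.0176), and from WT it was 0.34 ± 0.11 (adjusted p = 0.137), which did not pass. Without RC/RC mouse 3 or RC/RC:*Casp1*KO mouse 1 or 2 the adjusted p against RC/RC was 0.0533 to 0.0603.

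*Abca5*, a lysosomal member (ENSMUSG00000018800, chr11:110269369-110337716, minus strand), was at 2.36, 3.01, 3.01 and 2.902 FPKM in WT, 3.13, 2.06, 2.32 and 2.699 FPKM in RC/RC and 4.38, 4.27, 3.38 and 4.15 FPKM in double mutant mice. Again the double mutant lay above every other mouse. The log2 difference from RC/RC was 0.65 ± 0.14 (adjusted p = 0.0255), and that from WT was 0.52 ± 0.12 (adjusted p = 0.0578). Leaving out RC/RC mouse 2 or 3 or RC/RC:*Casp1*KO mouse 1 or 2 gave adjusted p values of 0.0541 to 0.0772 against RC/RC.

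*Abca4*, the flippase for retinoids in photoreceptors (ENSMUSG00000028125, chr3:122044443-122180061, plus strand), was at 1.44, 1.93, 1.47 and 1.63 FPKM in WT, 1.84, 1.057, 1.035 and 0.880 FPKM in RC/RC and 2.975, 2.99, 1.77 and 1.75 FPKM in double mutant mice. RC/RC mouse 1 lay above RC/RC:*Casp1*KO mice 3 and 4, so these groups overlapped. The log2 difference was 0.97 ± 0.27 (adjusted p = 0.0495), and the gene was called in 2 of 7 alternative settings and in 2 of 8 fits without 1 mouse. It was lost without RC/RC mouse 2, 3 or 4 or RC/RC:*Casp1*KO mouse 1, 2 or 3, with adjusted p values of 0.061 to 0.129.

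**Figure D5:**
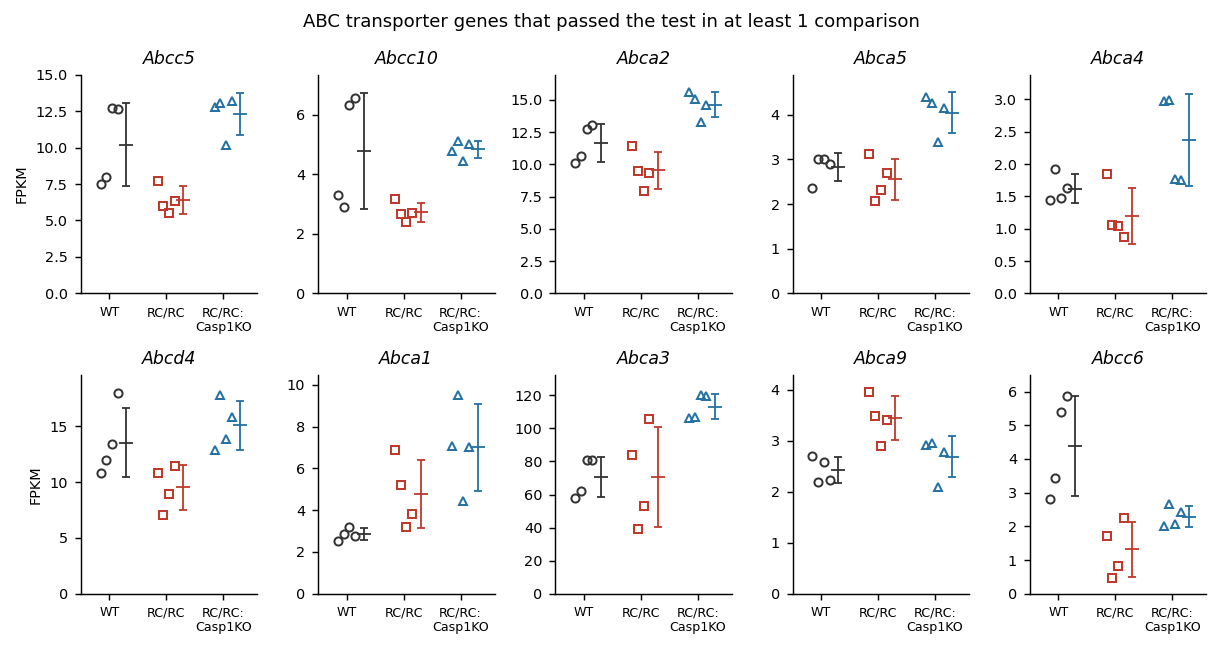
FPKM (y axis from 0) in single mice for the 10 ABC transporters that passed the test in at least 1 comparison, with mean ± s.d. beside them (n = 4). The 6 genes called in RC/RC:*Casp1*KO against RC/RC are *Abcc5*, *Abcc10*, *Abca2*, *Abca5*, *Abca4* and *Abcd4*, and *Abca4* is the one among them whose double mutant and RC/RC mice overlap.

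*Abca9* was the DEG that rose in RC/RC. The gene (ENSMUSG00000041797, chr11:110100749-110168196, minus strand) was at 2.702, 2.19, 2.58 and 2.24 FPKM in WT, 3.96, 3.49, 2.901 and 3.41 FPKM in RC/RC and 2.92, 2.96, 2.09 and 2.775 FPKM in double mutant mice. All RC/RC mice were above all WT mice, and the log2 difference was 0.50 ± 0.13 (adjusted p = 0.0328). RC/RC:*Casp1*KO values overlapped both groups, with a log2 difference of -0.36 ± 0.14 (adjusted p = 0.111) from RC/RC. Without RC/RC mouse 1 or 2 or WT mouse 2, 3 or 4, the adjusted p of RC/RC against WT was 0.0618 to 0.10.

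*Abca9* stands in a row of 5 members on chromosome 11, in the order *Abca8b*, *Abca8a*, *Abca9*, *Abca6* and *Abca5*, with no other protein-coding gene between them and gaps of 4770 to 29788 bp. All 5 lie on the minus strand. Their differences were unequal in size and sign. In RC/RC against WT the log2 differences were 0.02, 0.15, 0.50, 0.26 and -0.14 in that order, and in the double mutant against RC/RC 0.10, -0.34, -0.36, 0.08 and 0.65. *Abca9* passed in the first comparison and *Abca5* in the second, and whether neighbours differed from each other was not tested. Mean levels in WT were 0.556, 5.10, 2.43, 0.273 and 2.82 FPKM, so a transcribed gene stood beside a weakly transcribed one. *Abca13*, a very long member on the same chromosome, was at 10.8, 10.3, 9.14 and 10.8 FPKM in WT, 10.25, 3.025, 2.555 and 5.398 FPKM in RC/RC and 16.1, 13.4, 7.405 and 7.898 FPKM in double mutant mice. It passed in none of the comparisons, and RC/RC mouse 1 was far above the other RC/RC mice. The log2 difference of RC/RC from WT was -0.95 ± 0.38 (adjusted p = 0.138), and -1.50 ± 0.26 without that mouse (edgeR adjusted p = 0.011). For RC/RC:*Casp1*KO against RC/RC it was 1.07 ± 0.44 (adjusted p = 0.129), and 1.58 ± 0.37 without that mouse (edgeR adjusted p = 0.0277). DESeq2 on all mice called the first (adjusted p = 0.0472).

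The 7 cholesterol and phospholipid exporters summed to 9.90, 10.8, 11.8 and 8.67 FPKM in the WT mice, 16.5, 16.2, 11.6 and 10.7 FPKM in the RC/RC mice and 18.3, 19.1, 11.5 and 15.8 FPKM in the RC/RC:*Casp1*KO mice, with means of 10.3 ± 1.34, 13.8 ± 3.03 and 16.2 ± 3.42 FPKM. RC/RC mice 3 and 4 and RC/RC:*Casp1*KO mouse 3 lay within the WT range, and the sums were not tested. Of 4 members tested, none was a DEG in RC/RC against WT and 1 was in RC/RC:*Casp1*KO against WT. *Abca1*, which loads cholesterol and phospholipid onto apolipoprotein A-I (ENSMUSG00000015243, chr4:53030787-53159895, minus strand), was at 2.53, 2.86, 3.215 and 2.76 FPKM in WT, 6.87, 5.205, 3.18 and 3.84 FPKM in RC/RC and 7.07, 9.54, 4.43 and 7.03 FPKM in double mutant mice. WT mice lay within a narrow range, RC/RC mouse 3 lay inside it, and all RC/RC:*Casp1*KO mice were above it. The mean rose from 2.84 ± 0.286 FPKM in WT to 7.02 ± 2.09 FPKM in RC/RC:*Casp1*KO, a log2 difference of 1.31 ± 0.20 (adjusted p = 0.0185). RC/RC stood between, with log2 differences of 0.75 ± 0.22 (adjusted p = 0.0535) from WT and 0.55 ± 0.27 (adjusted p = 0.192) to the double mutant. *Abca1* was called higher in RC/RC than in WT with DESeq2, with all genes of at least 1 count and after correction for gene length. The call of the double mutant against WT was lost without RC/RC:*Casp1*KO mouse 4 or WT mouse 1, 2 or 4, with adjusted p values of 0.0501 to 0.0635.

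*Abcg1*, which exports cholesterol to mature lipoprotein particles, averaged 2.95 ± 1.09, 5.04 ± 1.303 and 4.00 ± 1.2 FPKM in WT, RC/RC and the double mutant and did not pass. *Abca7*, a phospholipid transporter, averaged 4.21 ± 0.383, 3.64 ± 0.455 and 4.78 ± 0.528 FPKM. Its double mutant values were all above the RC/RC values, with a log2 difference of 0.38 ± 0.12 (adjusted p = 0.0633). DESeq2 and 1 dispersion from all 12 mice each called *Abca7* higher in this comparison. *Abcb4*, the phosphatidylcholine floppase of bile canaliculi, stayed under 0.31 FPKM. The paired sterol transporter genes *Abcg5* and *Abcg8*, which overlap on opposite strands over 6710 bp, had at most 7 and 14 counts. *Abcg8* had 1, 3, 2 and 3 counts in the WT mice, all at the floor, against 14, 0, 2 and 3 in RC/RC and 3, 12, 1 and 7 in RC/RC:*Casp1*KO mice, and no fold was drawn from them.

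The dimeric transporters of mitochondria and lysosomes summed to 64.5 ± 3.91 FPKM in WT, 52.0 ± 7.56 FPKM in RC/RC and 62.0 ± 3.65 FPKM in RC/RC:*Casp1*KO. Of the 5 tested, *Abcd4* was a DEG. *Abcd4*, which works in the release of vitamin B12 from lysosomes (ENSMUSG00000021240, chr12:84602531-84617466, minus strand), was at 10.9, 11.97, 13.4 and 17.97 FPKM in WT, 10.8, 7.02, 8.902 and 11.4 FPKM in RC/RC and 12.9, 17.9, 13.8 and 15.8 FPKM in double mutant mice. The RC/RC:*Casp1*KO mice were above all RC/RC mice and overlapped the WT mice. The log2 difference from RC/RC was 0.65 ± 0.17 (adjusted p = 0.0414), and that of RC/RC from WT was -0.51 ± 0.20 (adjusted p = 0.124). Leaving out RC/RC mouse 2 or 3, or any 1 of the RC/RC:*Casp1*KO mice, gave adjusted p values of 0.0661 to 0.115.

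Among the mitochondrial members, *Abcb8* averaged 22.8, 20.5 and 21.3 FPKM in WT, RC/RC and the double mutant. *Abcb10*, needed for haem synthesis, averaged 11.04, 9.21 and 10.97 FPKM, with all RC/RC values below all WT values and a log2 difference of -0.26 ± 0.11 (adjusted p = 0.145). The lysosomal peptide transporter *Abcb9* averaged 3.44, 2.64 and 3.18 FPKM. None of these 3 passed. *Abcb6*, a porphyrin transporter, had 2, 4, 1 and 3 counts in WT, 1, 1, 0 and 1 in RC/RC and 15, 9, 4 and 5 in RC/RC:*Casp1*KO mice. All RC/RC mice were thus at the floor while each double mutant mouse was above it. The gene was left out by the filter on low counts. Where it was tested in RC/RC:*Casp1*KO against RC/RC, it was called higher, with DESeq2 (adjusted p = 0.0158) and with edgeR on all genes of at least 1 count (adjusted p = 0.0274). A transcript on the same strand, RP23-321N22.4, covers it over 8662 bp and had 0 or 1 counts, so these few reads are an uncertain measure of *Abcb6*.

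The dimeric transporters of peroxisomes summed to 123 ± 10.2 FPKM in WT, 92.5 ± 25.2 FPKM in RC/RC and 109 ± 6.69 FPKM in RC/RC:*Casp1*KO, and none of the 3 was a DEG. *Abcd3* (PMP70) was at 102, 119.5, 117 and 127 FPKM in WT, 88.3, 55.1, 81.8 and 118.5 FPKM in RC/RC and 106, 93.6, 108 and 102 FPKM in double mutant mice. RC/RC mouse 2 was again the lowest of all, and RC/RC mouse 4 lay inside the WT range. The log2 differences were -0.44 ± 0.21 (adjusted p = 0.206) for RC/RC against WT and 0.24 ± 0.21 (adjusted p = 0.469) for RC/RC:*Casp1*KO against RC/RC. *Abcd2* was at 0.0862, 0.103, 0.146 and 0.0256 FPKM in WT, 0.263, 2.41, 0.107 and 0.497 FPKM in RC/RC and 0.117, 0.328, 0.1805 and 0.1415 FPKM in double mutant mice. RC/RC mouse 2 was far above all other mice, and the log2 difference of RC/RC from WT was 3.17 ± 0.94 (adjusted p = 0.0555), which did not pass. The size of this difference rested on that mouse. Without it the RC/RC mean was 0.289 ± 0.196 FPKM (SD, n = 3) against 0.0902 ± 0.0498 FPKM in WT, and the log2 difference was 1.67 ± 0.61 (edgeR adjusted p = 0.153). *Abcd2* was called without RC/RC mouse 3 (adjusted p = 0.0332), with DESeq2, with all genes of at least 1 count and with 1 dispersion from all 12 mice.

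The potassium channel regulators *Abcc9* and *Abcc8*, the sulfonylurea receptors, differed in level. *Abcc9* averaged 2.99 ± 0.797, 3.44 ± 0.753 and 4.52 ± 0.489 FPKM in WT, RC/RC and the double mutant. Its log2 difference of the double mutant from WT was 0.60 ± 0.19 (adjusted p = 0.128) with no overlap, and it did not pass. *Abcc8* was under 0.14 FPKM in every mouse. The 4 members without a membrane domain summed to 91.1 ± 6.27, 86.0 ± 4.47 and 78.6 ± 2.92 FPKM, and none was a DEG. *Abcf1*, which acts in translation initiation, was at 31.9, 32.9, 29.99 and 27.15 FPKM in WT, 28.4, 30.95, 31.5 and 29.96 FPKM in RC/RC and 27.25, 26.4, 26.9 and 27.03 FPKM in double mutant mice. Its RC/RC:*Casp1*KO values were all below its RC/RC values, with a log2 difference of -0.18 ± 0.09 (adjusted p = 0.192). *Abce1*, which splits ribosomes after termination, averaged 23.0, 20.1 and 18.6 FPKM, *Abcf2* 21.2, 20.1 and 18.6 FPKM, and *Abcf3* 16.4, 15.6 and 14.5 FPKM. Each of these means was highest in WT and lowest in the double mutant, and none of the differences passed. All double mutant values of *Abce1* were below all WT values, with a log2 difference of -0.30 ± 0.09 (edgeR adjusted p = 0.117). DESeq2 called *Abce1* lower in that comparison.

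ABC proteins with other names did not pass either. *Cftr*, the chloride channel of cyst fluid secretion, averaged 1.498 ± 0.325, 0.989 ± 0.446 and 1.15 ± 0.371 FPKM in WT, RC/RC and the double mutant, with a log2 difference of -0.59 ± 0.31 (adjusted p = 0.238) for RC/RC against WT. For the antigen peptide transporters, *Tap1* averaged 3.75 ± 0.703, 5.97 ± 1.75 and 5.76 ± 2.37 FPKM and *Tap2* 4.87 ± 1.03, 6.35 ± 1.16 and 5.00 ± 0.772 FPKM. The log2 difference of *Tap1* in RC/RC against WT was 0.67 ± 0.22 (adjusted p = 0.0782).

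Regulators of ABC transporter genes were followed in a list of 17 nuclear receptors and transcription factors, 16 of them tested. In RC/RC against WT, 1 was higher and 2 were lower, and in RC/RC:*Casp1*KO against RC/RC 2 were higher and none lower. *Ppara*, the fatty acid receptor, fell by 0.90 ± 0.19 on the log2 scale in RC/RC against WT (adjusted p = 0.013) and rose by 0.66 ± 0.18 (adjusted p = 0.0421) in the double mutant against RC/RC. *Pparg* rose in RC/RC by 1.96 ± 0.50 (adjusted p = 0.0331). The liver X receptors, oxysterol sensors that drive *Abca1* and *Abcg1*, did not pass: *Nr1h2* averaged 43.9 ± 4.82, 45.5 ± 3.61 and 46.0 ± 3.26 FPKM and *Nr1h3* 24.03 ± 0.639, 24.1 ± 3.88 and 21.3 ± 2.64 FPKM.

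Of 9 other LXR targets, 2 were higher and 1 lower in RC/RC against WT, and 1 was lower in RC/RC:*Casp1*KO against RC/RC. *Pltp*, which transfers phospholipid between lipoproteins, rose by 1.71 ± 0.25 (adjusted p = 0.0031) in RC/RC and fell by 1.11 ± 0.28 on the log2 scale in RC/RC:*Casp1*KO against RC/RC (adjusted p = 0.0375). *Arl4c* rose by 0.87 ± 0.19 (adjusted p = 0.0168), and *Lpcat3*, which remodels phospholipids, fell by 0.47 ± 0.13 (adjusted p = 0.0427) in RC/RC. Of 12 genes of cholesterol handling, *Scarb1* was higher in RC/RC than in WT, by 0.77 ± 0.18 (adjusted p = 0.022). In RC/RC:*Casp1*KO against RC/RC, *Lcat* was higher by 1.40 ± 0.31 (adjusted p = 0.0265) and *Npc2* fell by 0.42 ± 0.09 (adjusted p = 0.0249).

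Partners of the organelle transporters gave few calls. Among 9 genes of iron-sulfur and haem synthesis, *Alas2*, the red cell enzyme, fell by 2.22 ± 0.26 on the log2 scale in RC/RC against WT (adjusted p = 0.00111), and *Ppox* rose by 0.65 ± 0.08 (adjusted p = 0.00406) in RC/RC:*Casp1*KO against RC/RC. In the double mutant against WT, *Alas2* fell by 1.37 ± 0.18 (adjusted p = 0.00852) and *Alas1* by 0.99 ± 0.18 (adjusted p = 0.0308). No gene passed in either comparison among 8 genes of organic anion uptake and cation export, 3 of peroxisomal membrane protein import or 2 potassium channel pores. Of the 2 pores, 1 was tested in RC/RC:*Casp1*KO against RC/RC. The organic anion list, the uptake side of the proximal tubule, summed to 1132 ± 288, 734 ± 282 and 919 ± 210.4 FPKM in WT, RC/RC and the double mutant.

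In whole kidney, fewer cells of a type and less RNA per cell cannot be told apart. Of 10 proximal tubule markers, 2 fell in RC/RC against WT (*Cubn* and *Slc5a2*) and 2 rose in RC/RC:*Casp1*KO against RC/RC (*Lrp2* and *Cubn*), while the other 8 did not pass in each comparison. *Cubn*, an endocytic receptor of the brush border, averaged 47.2, 22.4 and 57.02 FPKM in WT, RC/RC and the double mutant. The median log2 differences of the 10 markers were -0.73 and 0.49, in the directions of the exporter medians, which were -0.47 and 0.43. *Aqp1*, the water channel of the proximal tubule, had a log2 difference of the other sign in RC/RC against WT, 0.09 ± 0.16 (adjusted p = 0.753). The proximal tubule markers, of which *Miox* was the most abundant, summed to 5594, 6225, 6540.0 and 7087 FPKM in the WT mice, 3542, 3137, 4919 and 6105 FPKM in the RC/RC mice and 5070.0, 4891, 6648 and 5108 FPKM in the RC/RC:*Casp1*KO mice. RC/RC mouse 2, with the lowest marker sum, also had the lowest *Abcg2*, *Abcd3*, *Abcc2* and *Abcc6*, and RC/RC mouse 4 had the highest RC/RC values of both the sum and these 4 genes. *Abcc5*, *Abcc10* and *Abca2*, which were DEGs in RC/RC:*Casp1*KO against RC/RC, did not follow the sum within RC/RC and were lowest in mouse 3 and highest in mouse 1. The markers *Lrp2* and *Cubn*, DEGs in that comparison too, had the same lowest and highest mouse, and the other 8 markers did not. *Lrp2* was at 98.3, 52.2, 47.2 and 84.4 FPKM in the RC/RC mice and *Cubn* at 30.7, 16.5, 16.3 and 26.2 FPKM. Of the other 3 ABC transporter DEGs, *Abcd4* was lowest in mouse 2 and highest in mouse 4, as the sum was. *Abca5* was lowest in mouse 2 and highest in mouse 1, and *Abca4* was lowest in mouse 4 and highest in mouse 1. The 4 genes that follow the sum were picked after their values were seen. The part of tubule content in these differences was not tested.

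Of 10 macrophage markers, 9 rose in RC/RC against WT and 3 fell in RC/RC:*Casp1*KO against RC/RC. Their sums, led by *C1qa*, were 104, 72.0, 73.5 and 77.0 FPKM in WT, 263, 253, 224 and 199.8 FPKM in RC/RC and 105.4, 106, 82.9 and 219 FPKM in RC/RC:*Casp1*KO. RC/RC:*Casp1*KO mouse 4 lay within the RC/RC range, mice 1 and 2 just above the highest WT mouse and mouse 3 within the WT range. All 5 fibroblast markers, led by *Dcn*, rose in RC/RC, and 4 fell in RC/RC:*Casp1*KO against RC/RC, with group sums of 41.1 ± 4.72, 202 ± 74.6 and 72.3 ± 22.0 FPKM. RC/RC mouse 2 had the highest fibroblast sum, at 312 FPKM, and the *Abca8a* and *Abcd2* maxima. These 2 members were picked after their values were seen. The neighbours of *Abca8a*, namely *Abca9*, *Abca8b*, *Abca6* and *Abca5*, each had the maximum in another mouse. All 4 leukocyte markers rose in RC/RC against WT, and none passed in RC/RC:*Casp1*KO against RC/RC. Their sums were 10.06 to 13.55 FPKM in RC/RC mice and 5.07, 8.19, 7.32 and 19.04 FPKM in double mutant mice. Of 6 mural cell markers 2 rose in RC/RC, and in RC/RC:*Casp1*KO against RC/RC 1 rose and 2 fell. Of 3 thick ascending limb and distal tubule markers, *Slc12a3*, the thiazide-sensitive transporter, fell in RC/RC by 2.03 ± 0.33 on the log2 scale (adjusted p = 0.00444) and rose by 1.44 ± 0.39 (adjusted p = 0.0454) in the double mutant against RC/RC. Of 3 podocyte markers *Nphs1* fell in RC/RC, by 0.62 ± 0.16 (adjusted p = 0.0372). The 4 haemoglobin genes fell in RC/RC. In RC/RC:*Casp1*KO against WT, 3 of these 4 were lower and 1 fibroblast marker was higher, and no other marker of these lists passed. No marker of 5 for collecting duct or of 6 for endothelium passed in these comparisons. None of these marker lists held a gene at the floor in all mice. The part of these cell types in the ABC transporter values was not tested.

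Members were longer than most genes, with a median length of 5240.0 bp for the 37 tested against 3014 bp over all genes tested in RC/RC:*Casp1*KO against RC/RC. After removal of the length trend of each library, 6 members were again called in that comparison, 5 higher and 1 lower. *Abcc10*, *Abcc5*, *Abca2*, *Abca5* and *Abcd4* stayed higher, with log2 differences of 0.42 for *Abca5* and 0.38 for *Abca2*, *Abca4* was no longer called, and *Abca9* was lower by a log2 difference of -0.53. Scaling by library size alone also moved the share of higher genes. Of all DEGs in the double mutant against RC/RC, 62.1% were higher after TMM and 82.0% with library size alone. In RC/RC against WT, 75.4% were higher after TMM, 86.1% with library size alone and 72.9% with RLE size factors, against 66.2% with DESeq2, which also changed the test and the filter. In the double mutant against WT the share was 55.9% after TMM and 79.8% with library size alone. The 4 members called with library size alone in RC/RC:*Casp1*KO against RC/RC were *Abca2*, *Abca5*, *Abcc10* and *Abcc5*, all higher.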

How the data were processed

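Total kidney RNA of 12 mice was sequenced as poly(A) libraries by a service provider. The deposited table holds raw counts per gene made by the authors, with gene coordinates and lengths. The submitters' processing notes name CASAVA 1.8, STAR (version not given) and mm10. The counting tool, its annotation and its use of strand are not given in the sources used here. The table also holds normalized values, group means, fold changes and adjusted p values of the authors' DESeq2 comparisons, and none of these was used. No column was left without a group.

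Counts were fitted with edgeR 4.0.16 in R 4.3.3 (filterByExpr, TMM, quasi-likelihood F test), separately for the 8 mice of each comparison, with Benjamini-Hochberg adjustment over all genes tested and a threshold of 0.05. Standard errors were obtained as log2 fold change over root F. FPKM was computed from the counts, the deposited gene length and the TMM-scaled library size. The floor was 3 counts. DESeq2 1.42.0, 2 other scalings, 2 other filters, 1 dispersion over the 12 mice, correction for gene length and omission of each mouse were tried as alternatives. The fits were tested on simulated data, and no outcome of that is given here. Transcripts were compared with BLAST 2.17.0. Near copies were alignments of at least 95% identity over at least 100 bases between members or 500 bases to other genes.

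The family, its roles and the 18 related gene lists were chosen with earlier results of these data known. Genes were named where they passed the test in any comparison, where their mean level was among the 5 highest, or where 1 group was wholly at the floor; other members are given by level, and from the related lists the DEGs and *Cftr*, *Tap1*, *Tap2*, *Nr1h2* and *Nr1h3*. *Abcc3* and the genes beside it were described by mouse after their values were seen. The labels name separate mice, so p values measure the spread between mice. Each group held 2 females and 2 males and no fit had a term for sex, so this spread includes any difference between the sexes. Leaving out 1 mouse also made the numbers of the sexes unequal in its group. The column names give no sex, none was assigned from the values, and no result by sex is given. A few genes of these lists are not reported here by name.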

Additional observations from a re-analysis of the deposited data

Results flagged for a closer look

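The 37 tested ABC transporters were examined in each of the 3 groups for 1 mouse standing apart from the other 3. This used Dixon's test, which chance passes in about 1 of 20 groups, so several such values can arise by chance over all these members. Among WT mice, the highest *Abca6* value was 0.393 FPKM with the next mouse at 0.245, and the lowest *Abca5* value was 2.36 with the next at 2.90. Among RC/RC mice, 1 mouse stood high in 4 members. *Abcb1b* reached 8.49 FPKM with the next mouse at 3.67, *Abcg3* 0.542 with the next at 0.283, *Abcd2* 2.41 with the next at 0.497, and *Abca8a* 8.43 with the next at 5.09. The high mouse was RC/RC mouse 2 for *Abcd2* and *Abca8a* and RC/RC mouse 1 for *Abcb1b* and *Abcg3*. Among RC/RC:*Casp1*KO mice, the lowest *Abcc5* value was 10.1 FPKM with the next at 12.8, and the lowest *Abcb9* value was 2.73 with the next at 3.29. The *Abcc5* value was still above every RC/RC mouse. No explanation was tested for any of these 8 values.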

How the results depend on the processing

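Counts of ABC transporter DEGs moved with the setting. In RC/RC against WT the count was 2, and it was 8 with DESeq2, 4 with all genes of at least 1 count and 6 with 1 dispersion from all 12 mice. Leaving out 1 mouse gave 0 (without WT mouse 4) to 5 (without RC/RC mouse 4), and *Abcc6* alone remained without RC/RC mouse 2. In RC/RC:*Casp1*KO against RC/RC the count was 6, it was 4 to 9 under the 7 alternatives, the 9 from DESeq2, and leaving out 1 mouse gave 2 (without RC/RC mouse 3 or RC/RC:*Casp1*KO mouse 1 or 2) to 8 (without RC/RC mouse 4). *Abcc5* and *Abcc10* were called in each of these fits. Without RC/RC mouse 2, *Abca2*, *Abcc5* and *Abcc10* were called. In RC/RC:*Casp1*KO against WT the count was 2, and it was 5 with DESeq2, 3 with library size alone, and 1 with genes of at least 10 counts in every mouse and with 1 dispersion from all 12 mice. Leaving out 1 mouse gave 0 to 2. Members added there were *Abca5*, with DESeq2 and with library size alone, and *Abcc6* and *Abce1*, with DESeq2. In the related lists, 19 genes were called in RC/RC:*Casp1*KO against RC/RC, with 29 under DESeq2 and 8 under library size alone, and 6 in RC/RC:*Casp1*KO against WT, with 16 under DESeq2. By library size alone the RC/RC:*Casp1*KO sum was 160.2 FPKM for the other A subfamily lipid transporters and 81.8 FPKM for the proteins without a membrane domain. Library size alone moved the median log2 difference of all genes to 0.08 in RC/RC against WT and to 0.14 in RC/RC:*Casp1*KO against WT.

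Further members named here were called without 1 mouse. They were, for RC/RC against WT, *Abca1* (without RC/RC mouse 3 or 4), *Abca4* and *Abca13* (RC/RC mouse 1), *Abcc2* (RC/RC mouse 4), *Abcd2* (RC/RC mouse 3), *Abcc5* (WT mouse 1 or 2), *Abcc10* (WT mouse 2) and *Abcb9* (WT mouse 3). In RC/RC:*Casp1*KO against RC/RC they were *Abca13* (RC/RC mouse 1) and *Abcc2*, *Abca3* and *Abcc9* (RC/RC mouse 4), and in RC/RC:*Casp1*KO against WT *Abca5* (RC/RC:*Casp1*KO mouse 3).

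The sign changes seen among the differences followed across settings are given here, and differences of other members may also change sign. In RC/RC against WT, the log2 difference of *Abca3* was 0.09 with library size alone, 0.01 with either other filter and 0.11 without the length trend, and -0.27 to 0.18 without 1 mouse. That of *Abcf1* was 0.08 with library size alone, 0.0017 with at least 10 counts in every mouse, 0.02 without the length trend and -0.07 to 0.02 without 1 mouse. *Abca5* was at 0.00015 without the length trend. In RC/RC:*Casp1*KO against WT, *Abcc10* was at -4.7e-05 with DESeq2 and at -0.15 to 0.21 without 1 mouse, and *Abcc2* at -0.29 to 0.02 without 1 mouse. The cause of these changes was not tested. The settings were tallied over the log2 differences of single genes and the counts of member DEGs called higher or lower. Of these, 698 stayed the same, meaning the same sign and side of the threshold for a gene, or a similar count. Among the log2 differences, 66 called values were no longer called, 25 became called and 19 changed sign. Another 34 values, all counts of DEGs by direction, moved.

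No paired analysis was possible because the columns carry no replicate number. With 4 mice a group and 18019819 to 24869454 reads per mouse, members near the floor of 3 counts could not be compared, and a member that missed the threshold is not shown to be equal between groups.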

Other observations

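ABC transporters received 0.265%, 0.278%, 0.3% and 0.3% of the reads in the WT mice, 0.284%, 0.182%, 0.195% and 0.276% in the RC/RC mice and 0.35%, 0.361%, 0.3% and 0.333% in the RC/RC:*Casp1*KO mice. The share was lowest in RC/RC mice 2 and 3 and highest in RC/RC:*Casp1*KO mice 1 and 2. The mitochondrial share of reads was highest in the same RC/RC mice (12.1% and 11.6%) and lowest in RC/RC:*Casp1*KO mouse 1 (7.78%), and its part was not tested.

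Several members share near-identical stretches of transcript, so the counting could split their reads. *Abca8b* and *Abca8a* share 218 bases, *Abcb1a* and *Abcb4* 183 bases, and *Abcb1b* and *Abcb4* 182 bases, all at over 95% identity. *Abcb6* shares 1161 bases with the noncoding Gm29253, and *Abcf2* shares 785 bases with its neighbour Chpf2. On chromosome 17, *Abca17* and *Abca3* start head to head on opposite strands, 920 bp apart, with no protein-coding gene between them, and *Abcc10* overlaps Dlk2 on the opposite strand by 51 bp, with 0 to 24 counts on Dlk2.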
